A study of Mus musculus with 2 samples.

Results

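The genes described here are 7 genes of cytosine methylation in the mouse, Dnmt1, Uhrf1, Dnmt3a, Dnmt3b, Tet1, Tet2 and Tet3, taken by symbol from the 50559 genes of the count files. All 7 were found. RNA was measured in 1 group of 2 libraries, replicate 1 and replicate 2, both made from live GFP-positive keratinocytes sorted from the dorsal skin of mice of genotype Polr2b.fl.fl.GFP; K14Cre on postnatal day 21, when the hair follicles were labelled as in telogen, their resting phase. Both libraries thus share floxed alleles of Polr2b, the gene of the second largest RNA polymerase II subunit, with GFP, and Cre driven by the promoter of keratin 14, a gene of basal epidermal cells. No library from mice without Cre was analysed here. The values are thus levels in the sorted samples, and a comparison of the libraries with each other.

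DNA methyltransferases place a methyl group on cytosine, mostly where a guanine follows it (CpG). Dnmt1 restores methylation on the new strand after replication, and is brought to such sites by Uhrf1, which binds DNA methylated on only 1 of its strands. Dnmt3a and Dnmt3b set methylation on unmethylated DNA. Tet1, Tet2 and Tet3 are dioxygenases that oxidize methylcytosine to hydroxymethylcytosine and beyond, a route by which the mark can be lost. In human epidermis, DNMT1 and UHRF1 are known for keeping progenitor cells undifferentiated, and DNMT3A and DNMT3B for acting at enhancers of epidermal stem cells.

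The libraries held 36692204 counts in replicate 1 and 33489967 counts in replicate 2. Markers of the labelled cell type were abundant, with Krt5, the keratin of basal cells, at 4491 and 7035 TPM (counts divided by gene length and scaled to sum to 1000000 in each library). Other skin cells were also represented, since the fibroblast gene Col1a1 had 2335 and 1097 TPM and the macrophage gene Lyz2 had 3246 and 4743 TPM. Of 5 T cell genes, Trac and Trdc had no count in either library, and Cd3g and Cd3d had none in 1 of them. The remaining gene, Cd3e, had 29 counts in replicate 1 and 32 counts in replicate 2. The libraries differed in sex-linked RNA: Xist had 112587 and 11 counts, while on the Y chromosome Uty had 0 and 2394 counts, Kdm5d 0 and 1113, and Ddx3y 0 and 1618. These values too are given for replicate 1 before replicate 2. The libraries thus differ in the sex of their source, female for replicate 1 and male for replicate 2, and did not come from 1 animal. The labels give no sex, and sex and replicate cannot be told apart. The p-values below describe only differences between these 2 libraries. In bulk RNA, fewer cells of a type and less RNA per cell cannot be told apart. The levels of the 7 genes are those of all cells in a sample together, and their share from keratinocytes was not measured.

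The promoters of Uhrf1 and Dnmt1 are shown first, because at the library totals Uhrf1 was the member that differed most between the libraries, and Dnmt1 is its partner in maintenance. Each window runs from 250 bases before to 50 bases after a transcript start in RefSeq, build GRCm38.p6, and is written 5′ to 3′ on the gene's strand. Capitals mark TTCCCGC or TTGGCGC, forms of the motif of E2F factors, which act on genes of DNA replication. The Uhrf1 windows lie on the plus strand at chr17:56303087-56303386 and chr17:56304063-56304362. Of the 3 Dnmt1 windows only the 1 that holds a motif is printed, on the minus strand at chr9:20952574-20952873.
Uhrf1 upstream start: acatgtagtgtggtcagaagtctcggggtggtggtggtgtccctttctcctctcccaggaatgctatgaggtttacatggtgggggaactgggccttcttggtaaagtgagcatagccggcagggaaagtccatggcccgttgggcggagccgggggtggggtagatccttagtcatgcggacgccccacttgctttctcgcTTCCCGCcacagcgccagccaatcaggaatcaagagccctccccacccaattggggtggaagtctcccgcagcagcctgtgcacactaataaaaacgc
Uhrf1 downstream start: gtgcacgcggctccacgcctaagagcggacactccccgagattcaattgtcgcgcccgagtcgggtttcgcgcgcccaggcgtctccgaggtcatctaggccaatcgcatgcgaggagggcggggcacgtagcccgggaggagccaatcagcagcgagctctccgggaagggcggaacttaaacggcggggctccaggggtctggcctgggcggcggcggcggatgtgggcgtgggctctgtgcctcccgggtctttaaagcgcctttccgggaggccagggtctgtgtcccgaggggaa
Dnmt1: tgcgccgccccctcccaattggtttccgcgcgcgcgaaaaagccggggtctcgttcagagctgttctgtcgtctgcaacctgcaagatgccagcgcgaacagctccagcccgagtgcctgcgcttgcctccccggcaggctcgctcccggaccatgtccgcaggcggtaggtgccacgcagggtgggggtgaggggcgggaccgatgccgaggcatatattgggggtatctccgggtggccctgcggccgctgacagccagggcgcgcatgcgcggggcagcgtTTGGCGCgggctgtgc

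The upstream Uhrf1 window held TTCCCGC, beginning 48 bases before the start (position -48). The printed Dnmt1 window held TTGGCGC, beginning at base 35 of the transcript. No other window of the 7 genes held either motif on either strand, out of 12 windows in all. Among all 32851 RefSeq windows of this length, 4.60% held TTCCCGC, 2.45% held TTGGCGC and 6.81% held at least 1 of them. For windows of genes with 10 or more counts in these libraries, these shares were 6.44%, 3.31% and 9.37%. Among 12 windows found for a list of 14 proliferation genes, 5 held TTGGCGC and none held TTCCCGC. These matches describe letters in the windows, not binding.

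The 7 genes lie on 7 different chromosomes, and their promoters were rich in CpG. Of their 12 windows, 11 held more CpG than the median of 7 CpG over all windows. Tet2 had 57 CpG in its window, more than 99.8% of all windows, and the Dnmt3a windows had 46, 47 and 18. Dnmt3b had 30, Tet3 had 22 and Tet1 had 17. Both Uhrf1 windows were above the median, at 12 and 33. The exception was the most upstream of the 3 Dnmt1 starts, with 2 CpG, while its other windows had 12 and 33. Windows of genes with 10 or more counts in these libraries had a higher median, of 15 CpG, and 9 of the 12 windows lay above it.

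**Figure D1:**
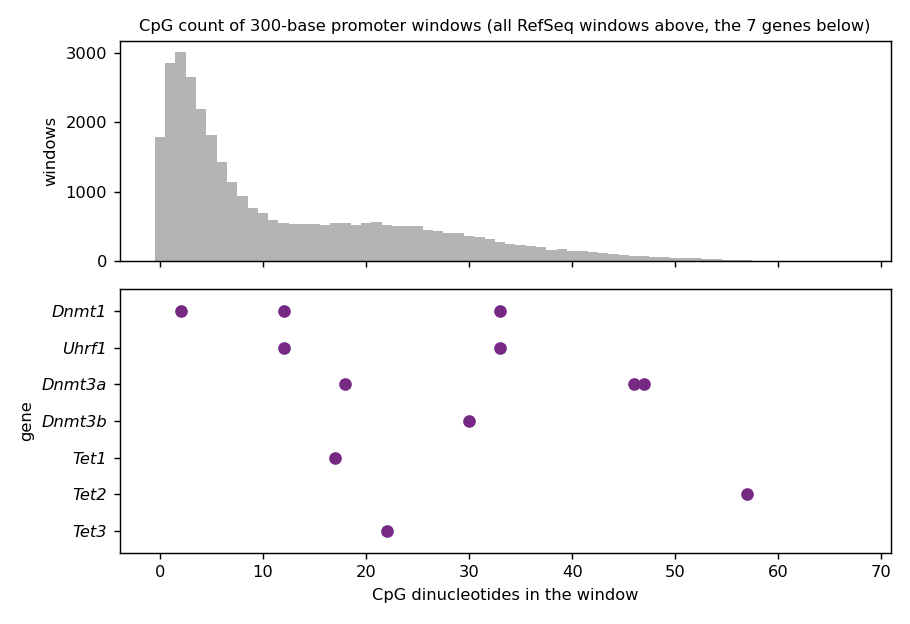
CpG dinucleotides in promoter windows of 300 bases around RefSeq transcript starts. The upper panel counts all 32851 windows and the lower panel has 1 point for each of the 12 windows of the 7 genes, of which 11 lie above the overall median of 7 CpG.

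All 7 genes were detected, defined as at least 1 CPM (counts per 1000000 counts of the library) in both libraries, which 15833 genes reached. Their mean levels ran from 0.847 TPM to 91.6 TPM. Per length, Tet3 was highest and Tet1 lowest, so the extremes of the list were members of the same family. Levels are compared between genes in TPM, with the deposited gene length, and are given for replicate 1 and then replicate 2. No level was tested, because the smallest exact sign-flip p that 2 libraries allow is 0.5.

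**Figure D2:**
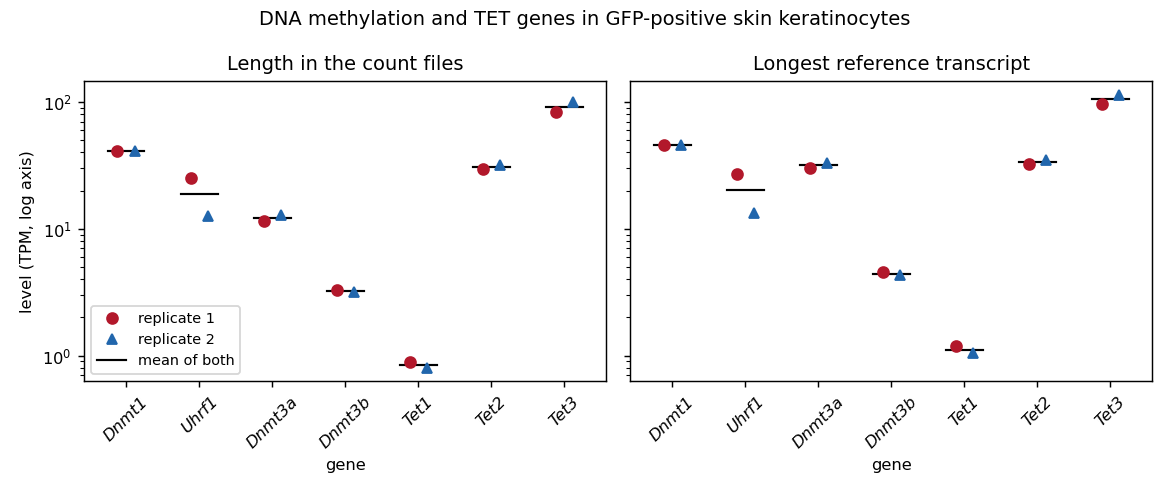
Level of each of the 7 genes in TPM on a log axis, with replicate 1 as circles, replicate 2 as triangles and the mean of both as a line. The left panel uses the gene length of the count files and the right panel the longest reference transcript. Tet3 lies at the top and Tet1 at the bottom in both, and Dnmt3a moves up beside Tet2 in the right panel.

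Dnmt1, the maintenance methyltransferase, was the second of the 7 genes at 40.7 and 41.1 TPM, or 40.9 ± 0.284 TPM (SD, n = 2). The libraries held 3814 and 3509 counts of it, which are 104 and 105 CPM. Its level lay above those of 78.0% of the detected genes. At the library totals its log2 ratio of replicate 1 over replicate 2 was -0.011, the nearest to 0 of the 7 genes, whereas under TMM it was -0.088 and Dnmt3b was nearer to 0 at -0.016.

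Uhrf1, the hemimethylation reader, was the member on which the libraries disagreed. It had 1394 counts in replicate 1 and 633 counts in replicate 2, or 25.3 and 12.6 TPM (19.0 ± 8.98 TPM, SD, n = 2). The SD of Tet3, the next largest relative to its mean, was 11.9 on a mean of 91.6 TPM. On the log2(TPM + 0.1) scale, which is used for all differences of level here, Dnmt1 stood above Uhrf1 by 0.68 in replicate 1 and by 1.70 in replicate 2.

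Of the de novo methyltransferases, Dnmt3a was the main one. Dnmt3a had 11.4 and 12.8 TPM from 4161 and 4231 counts, and Dnmt3b had 3.28 and 3.15 TPM from 281 and 246 counts. Dnmt3a exceeded Dnmt3b by 1.88 ± 0.15 on the log2(TPM + 0.1) scale (SD, n = 2), or 3.67-fold, with 1.77 in replicate 1 and 1.98 in replicate 2. The size of this difference depends on the gene model. The deposited length of Dnmt3a is 24591 bases, 2.54 times its longest reference transcript of 9685 bases, while this factor was between 1.04 and 1.34 for the other 6 genes. With the longest reference transcript Dnmt3a was at 31.6 ± 2.27 TPM (SD, n = 2) and exceeded Dnmt3b 6.98-fold.

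Dnmt1 made up 73.5% and 72.1% of the summed TPM of the 3 methyltransferases, and Dnmt3b 5.92% and 5.53%. With the longest reference transcript the share of Dnmt1 was 56.8% and 54.8%, and that of Dnmt3b was 5.68% and 5.22%. Dnmt3b was thus a small part under both lengths, whereas the weight of Dnmt1 against Dnmt3a was not independent of the length used.

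Among the dioxygenases, Tet3 led by far. It had 14938 and 16361 counts, or 83.1 and 99.96 TPM (91.6 ± 11.9 TPM, SD, n = 2), and lay above 91.1% of the detected genes. Tet2 had 4245 and 4200 counts, or 29.4 and 32.0 TPM. Tet1, known for its role in pluripotent and germ cells, had 243 and 199 counts, or 0.892 and 0.802 TPM. It lay above only 4.08% of the detected genes by TPM, and above 28.8% by CPM, without length scaling. Tet3 exceeded Tet2 by 1.57 ± 0.10 (log2 TPM, SD, n = 2), or 2.97-fold, and Tet2 exceeded Tet1 by 5.02 ± 0.18, or 32.5-fold. Tet3 made up 73.3% of the summed TET level in replicate 1 and 75.3% in replicate 2, and Tet1 made up 0.786% and 0.604%. The 3 TET genes summed to 113 and 133 TPM, and the 3 methyltransferase genes to 55.4 and 57.0 TPM.

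The full order of TPM ran Tet3, Dnmt1, Tet2, Uhrf1, Dnmt3a, Dnmt3b and Tet1. Tet3 over Dnmt1 was 1.15 ± 0.18 (log2, SD, n = 2), Dnmt1 over Tet2 was 0.41 ± 0.07, and Dnmt3b over Tet1 was 1.81 ± 0.06, each larger than its spread. Tet2 over Uhrf1, at 0.78 ± 0.79, and Uhrf1 over Dnmt3a, at 0.56 ± 0.82, were not. Uhrf1 stood above Dnmt3a by 1.14 in replicate 1 and level with it in replicate 2, at -0.015. With the longest reference transcript Dnmt3a stood above Uhrf1, and the difference of Uhrf1 minus Dnmt3a was -0.72 ± 0.82.

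Each gene's count was then compared between the libraries with the exact two-sided binomial test at the ratio of the library totals, adjusted over all 23690 genes with 10 or more counts (Benjamini-Hochberg, called at an adjusted p under 0.05). The test covers counting error only and compares 2 libraries, not conditions. It called 44.1% of all genes, 27.2% as higher and 16.9% as lower in replicate 1. Of the 7 genes it called 4, a share of 57.1% beside 44.1% of all genes, with 1 higher and 3 lower in replicate 1. More members were thus called lower than higher, unlike all genes. With only 7 genes, this difference was not tested.

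Uhrf1 was higher in replicate 1, with 38.0 CPM there against 18.9 CPM in replicate 2, a log2 ratio of 1.01 (exact 95% interval 0.87 to 1.15; binomial adjusted p = 1.12e-49) or 2.01-fold. Among the detected genes, 3.11% had a ratio as high or higher. Over all tested genes, which include those with few counts, its ratio lay above only 89.3% of the ratios. Beyond 1.5-fold and past the test lay 12.8% of all tested genes on the side of replicate 1 and 4.42% on that of replicate 2, and Uhrf1 was the 1 member among them. When the spread between libraries over all genes was included, with edgeR's exact test at a coefficient of variation of 22.9%, Uhrf1 was not called (adjusted p = 0.568, unadjusted p = 0.0362). That test called none of the 7 genes and 0.291% of all genes, and Uhrf1 was the 1 member with an unadjusted p under 0.05. With 1 library on each side it has little power at a change of this size, so a missed call does not show that the libraries were alike.

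Tet3, Tet2 and Dnmt3a were slightly lower in replicate 1. Tet3 had 407 CPM in replicate 1 and 489 CPM in replicate 2, a log2 ratio of -0.26 (interval -0.30 to -0.23; binomial adjusted p = 8.26e-57). Dnmt3a had 113 and 126 CPM, a log2 ratio of -0.16 (interval -0.22 to -0.09), and Tet2 had 116 and 125 CPM, a log2 ratio of -0.12 (interval -0.18 to -0.05). All 3 turned to higher in replicate 1 when the libraries were scaled to cell junction genes. Dnmt1, Dnmt3b and Tet1 were not called, at -0.01 (interval -0.08 to 0.06), 0.06 (interval -0.19 to 0.31) and 0.16 (interval -0.12 to 0.43). Counting error alone thus left room for a change of up to about 0.43 in Tet1, and the interval of Uhrf1 lay above those of all 6 other genes.

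**Figure D3:**
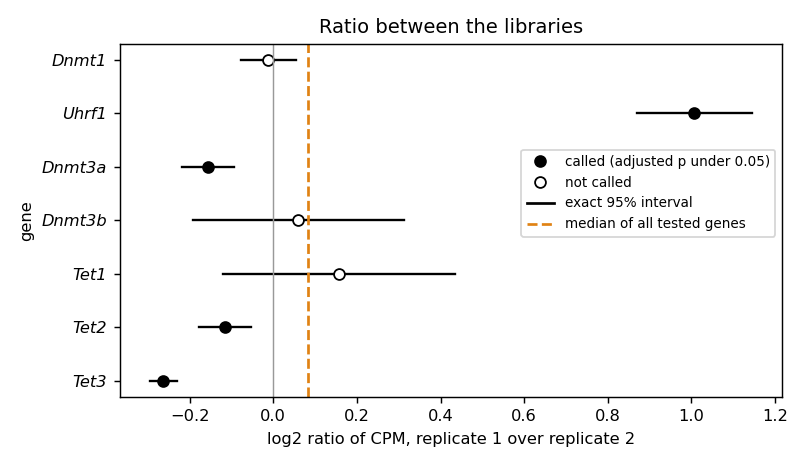
Log2 ratio of CPM, replicate 1 over replicate 2, for each of the 7 genes, with its exact 95% interval. Filled points were called by the binomial test and open points were not, and the dashed line is the median of all tested genes at 0.08. Uhrf1 stands alone at 1.01, and the other 6 lie between -0.26 and 0.16.

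The binomial call of Uhrf1 held under every scaling tried, and those of the other members did not all hold. TMM factors lowered all ratios by 0.08, and 21.4% of all genes were then called higher and 22.7% lower in replicate 1. Uhrf1 was at 0.93 under TMM, and Dnmt1 was called lower at -0.088 (binomial adjusted p = 0.0237). Scaled to the sum of 8 cell junction genes, which moved the median of all genes to 0.55, all 7 members and 65.5% of all genes were called higher in replicate 1, with Uhrf1 at 1.47 and Tet3 at 0.20. Each scaling shifts the log2 ratios of all genes by the same amount, so it moves the calls and not the order of the 7 genes.

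The ratio of Uhrf1 lay among those of the proliferation list. All 14 genes of that list were called higher in replicate 1, beside 27.2% of all genes. The list had a median log2 ratio of 0.76 and a range of 0.19 to 2.03. Their summed level was 697 CPM in replicate 1 and 408 CPM in replicate 2. Top2a, a topoisomerase of dividing cells, had 133 and 70.7 CPM, and Rrm2, which makes deoxynucleotides for replication, had 26.6 and 12.7 CPM. Relative to the summed proliferation counts, Uhrf1 was 5.45% in replicate 1 and 4.64% in replicate 2, a remaining log2 ratio of 0.23 (binomial adjusted p = 0.0013), whereas Dnmt1 was 14.9% and 25.7%. Scaled this way, the other 6 genes and 64.1% of all genes were called lower in replicate 1.

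Markers of other cell types moved with Uhrf1 as well, and their part in its difference was not tested. All 8 fibroblast genes were called higher in replicate 1, beside 27.2% of all genes, at summed levels of 13114 and 6501 CPM. Their median log2 ratio was 0.97. The 5 mural genes summed to 140 and 66.0 CPM, with Tagln at 0 and 5 counts, and the 5 endothelial genes summed to 64.3 and 41.6 CPM. The 8 macrophage genes summed to 7677 and 8359 CPM, with a median log2 ratio of -0.03. The 7 spinous genes were all called lower in replicate 1, at 4221 and 7492 CPM, beside 16.9% of all genes. So were the 8 basal genes, at 12460 and 18174 CPM, and the 8 cell junction genes, at 7433 and 10249 CPM. The 5 melanocyte genes summed to 28.0 and 14.7 CPM, with 4 called higher in replicate 1, beside 27.2% of all genes.

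**Figure D4:**
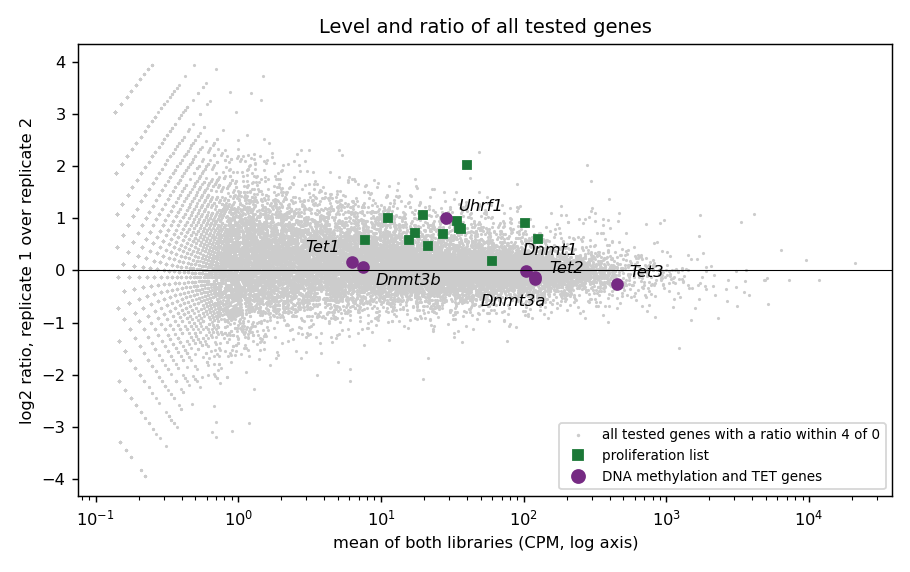
Log2 ratio of replicate 1 over replicate 2 against the mean CPM of both libraries (log axis) for the tested genes (grey), the proliferation list (green squares) and the 7 genes (purple circles). Uhrf1 lies among the proliferation genes, whose ratios run from 0.19 to 2.03, and the other 6 genes lie near 0.

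By distance over the log2(TPM + 0.1) values of the 2 libraries, the nearest of 136 genes on the pathway and marker lists was found for each member. The nearest to Uhrf1 was Pclaf, a PCNA-binding factor of replicating cells, at 24.5 and 12.4 TPM and a distance of 0.05, followed by the mitotic kinase Aurkb at 24.3 and 14.9 TPM. Dnmt1 was nearest to Parp1, a DNA damage sensor, at 39.1 and 40.5 TPM, and Tet2 to the CpG-binding demethylase Kdm2b at 28.4 and 30.7 TPM. Tet3 was nearest to the deubiquitinase Usp7 at 85.8 and 90.1 TPM, Dnmt3a to the repair scaffold Xrcc1 at 10.8 and 12.1 TPM and Dnmt3b to the glycosylase Mbd4 at 4.07 and 3.28 TPM. Tet1 had no close neighbour, with the melanocyte gene Mlana nearest at a distance of 0.45. With 2 libraries, this likeness is of level and of 1 ratio only.

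A wider list of 57 genes that work with these 7 was examined in 5 groups. In all, 55 of them were tested, of which 20 were called higher and 9 lower in replicate 1, or 36.4% and 16.4%, beside 27.2% and 16.9% of all genes. Under TMM the counts were 10 higher and 17 lower, beside 21.4% and 22.7% of all genes. The median log2 ratio was 0.03, against 0.08 over all tested genes.

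The partners of maintenance methylation had 5 of 8 tested genes higher and 1 lower in replicate 1 at the library totals, with a median log2 ratio of 0.21, beside 27.2% higher and 16.9% lower of all genes. Called beyond 1.5-fold were Pclaf, with 23.6 and 11.9 CPM (log2 ratio 0.98), and the DNA ligase Lig1, with 31.5 and 20.4 CPM (0.62). The remodeller Hells, which is needed for methylation of repeats in the mouse, had 14.8 and 10.1 CPM (0.56), and its partner Cdca7 had 15.2 and 13.7 CPM and was not called. Uhrf2, the relative of Uhrf1, was also higher in replicate 1 but by less, at 40.9 and 34.8 TPM (log2 ratio 0.23, interval 0.14 to 0.33). The highest members of the group were Pcna, the replication clamp, at 126 and 110 TPM and Usp7, which stabilizes Dnmt1, at 85.8 and 90.1 TPM. Dppa3, an oocyte factor that keeps Uhrf1 from chromatin, was lowest with 2 and 3 counts. Pcna also belongs to the proliferation list, so the lists overlap.

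Relatives of the methyltransferases and partners of de novo methylation had 5 of 11 tested genes higher and 1 lower in replicate 1. Their median was 0.09, beside 0.08 over all tested genes, of which 27.2% were higher and 16.9% lower. The germ cell cofactor Dnmt3l was nearly absent at 11 and 7 counts, and Dnmt3c, a germ line copy of Dnmt3b that the files list as Dnmt3b-ps1, had 6 and 3 counts. The corepressor Trim28 and the histone methyltransferase Ehmt2 were the highest of the group. Trim28 had 83.1 and 78.2 TPM, and Ehmt2 had 72.1 and 82.7 TPM, a log2 ratio of -0.19 and the 1 gene called lower. The histone methyltransferases Nsd1 and Setd2, which place the marks that Dnmt3 enzymes read, had 59.0 and 56.2 TPM and 54.6 and 51.0 TPM.

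Of 13 CpG readers, 7 were higher and 2 lower in replicate 1, with a median of 0.16. Over all tested genes 27.2% were higher and 16.9% lower, with a median of 0.08. The unmethylated-CpG binder Cxxc1 had 49.9 and 53.6 TPM and the methyl-CpG protein Mbd2 had 48.9 and 44.8 TPM, and these were the highest of the group. The CXXC protein gene Cxxc4 was lowest, at 16 and 10 counts.

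Of 13 TET partners and base removal genes, none was called higher and 3 lower in replicate 1 at the library totals, with a median of -0.17, beside 27.2% higher and 16.9% lower of all genes. The difference between the groups of the wider list was not tested. The called genes were Tdg, the glycosylase that removes oxidized methylcytosine, at 19.3 and 24.98 TPM (log2 ratio -0.37, interval -0.50 to -0.25), the cytidine deaminase Apobec1 at 50.1 and 59.6 TPM (-0.25), and the stress gene Gadd45b at 94.6 and 112 TPM (-0.24). Ogt, the sugar transferase that binds TET proteins, had 58.8 and 57.5 TPM and was not called, as was the repair nuclease Apex1 at 74.1 and 69.6 TPM.

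The last group held genes linked to the methyl donor or to the oxoglutarate that TET enzymes consume, some of which supply neither. It was the most abundant of the 5 groups, with a median of 58.4 TPM. The isocitrate dehydrogenase Idh1 had 199.8 and 170.0 TPM and the methionine adenosyltransferase Mat2a had 169 and 176 TPM. Of the 10 genes, 3 were called higher and 2 lower in replicate 1, beside 27.2% and 16.9% of all genes. Fh1, the fumarase, was the 1 gene of the wider list called lower in replicate 1 by more than 1.5-fold, at 111 and 168 TPM (log2 ratio -0.59, interval -0.67 to -0.52). D2hgdh, which oxidizes hydroxyglutarate, was lowest, at 3.92 and 3.98 TPM.

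**Figure D5:**
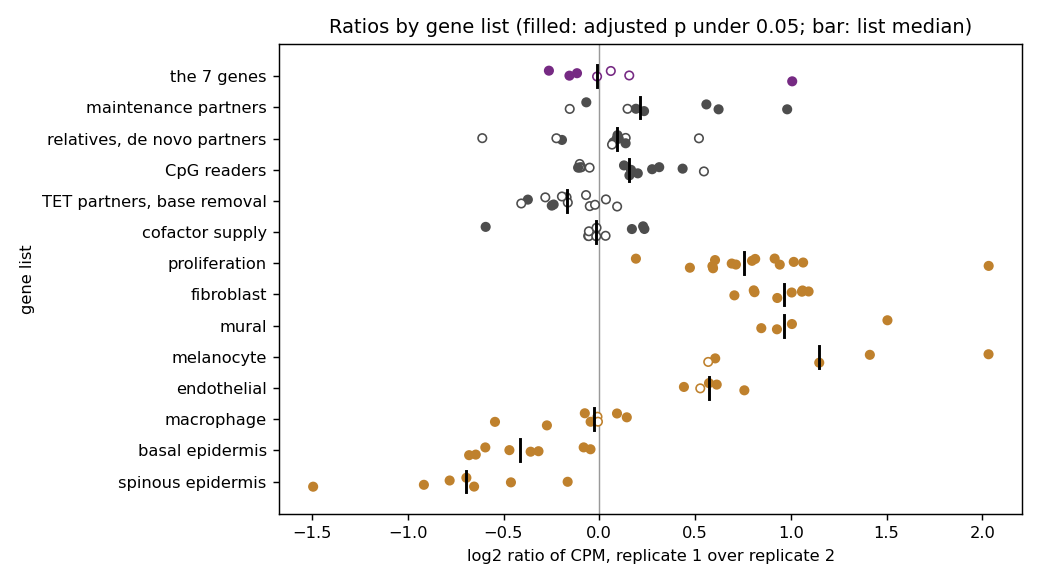
Log2 ratio of CPM, replicate 1 over replicate 2, for tested genes of each list, with filled points called by the binomial test and a bar at each list's median. Uhrf1 at 1.01 lies beside Pclaf at 0.98, and the medians of the proliferation, fibroblast, mural, melanocyte and endothelial lists are at 0.76, 0.97, 0.97, 1.15 and 0.57. The other 6 genes lie between -0.26 and 0.16, and the genes of the wider list between -0.61 and 0.98.

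Genes that promoter methylation is known to keep silent in mouse somatic cells had almost no RNA. The 8 germ and stem cell genes, among them Dazl, Mael, Ddx4 and Nanog, summed to 21 counts in replicate 1 against 34 counts in replicate 2. The highest single value was 13 counts, of Ddx4 in replicate 2, and none reached 1 CPM. Methylation itself was not measured here.

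Sequence shared with other genes was looked for, since it could add to or take from these counts. Of all distinct stretches of 50 bases in the reference transcripts of each gene, 15.4% of those of Uhrf1 and 9.81% of those of Dnmt3b also occur in another gene, and under 1% for the other 5. For Uhrf1 these lie mostly in the pseudogene Gm5648, with 0 and 0 counts, and for Dnmt3b in Dnmt3c. No such stretch was shared between any pair of the 7 genes. An antisense gene, Dnmt3aos, overlaps Dnmt3a and had 21 and 34 counts, and B230319C09Rik lies opposite Tet3 with 262 and 240 counts. Since the strand setting of the counting is unknown, their reads may not be separate from those of Dnmt3a and Tet3. The microRNA gene Mir6374 overlaps Tet3 on the same strand and had 18 and 38 counts, which strand alone could not separate from those of Tet3.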

How the data were processed

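Total RNA of 2 libraries was depleted of ribosomal RNA and sequenced as paired-end reads of 150 bases, per the labels' protocols. The authors deposited raw counts per gene, made with featureCounts on build mm39 per the submitters' processing notes, beside each gene's length in bases. Not given in the sources used here are the aligner, the annotation, the strand setting and the treatment of multimapping reads.

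CPM used the total of all counts, and TPM the counts and the deposited length or, as an alternative, the longest transcript in GENCODE M21 (found for 37796 genes with 95.8% of counts). The binomial test ran over all genes with 10 or more counts in total and its intervals are exact (Clopper-Pearson, 95%), covering counting error only (the labels describe no molecular identifiers, and PCR copies are not independent). The exact test of edgeR used the common dispersion of an intercept-only fit on the same 2 libraries, because a quasi-likelihood test has no residual degrees of freedom there. Both were tested on simulated data with known changes, of which the binomial test recovered nearly all under counting noise alone, and edgeR's test almost none under a spread between libraries. Alternatives were TMM and DESeq2 size factors, scaling to a cell junction list and, added after seeing the data, to the proliferation list, no filter on low counts, other pseudocounts and leaving out a library. DESeq2 was used for size factors only.

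The members and lists were chosen with earlier results of these data known. Named are all 7 genes, in each group of the wider list the 2 highest and the lowest by TPM and those called beyond 1.5-fold, and the 2 nearest genes of each member, of which some are not reported here; the lowest gene of 1 group is also not reported here. Other names were chosen after their values were seen. Dnmt3c was matched by its synonym. RefSeq promoter windows on GRCm38.p6 were found for all 7 genes. Protein sequences were not used here. Software was Python 3.11.15, numpy 2.4.6, pandas 2.3.3, scipy 1.17.1, matplotlib 3.10.9, R 4.3.3, edgeR 4.0.16 and DESeq2 1.42.0.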

Additional observations from a re-analysis of the deposited data

How the results depend on the processing

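All levels rest on n = 2. A ratio between libraries has 1 library on each side, so leaving 1 out and DESeq2's test were not run. No paired analysis was possible because the series has 1 group. Counting error limits Dnmt3b and Tet1, which had under 300 counts per library.

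With the longest reference transcript, mean levels moved to 105 TPM for Tet3, 45.4 for Dnmt1, 33.5 for Tet2, 31.6 for Dnmt3a, 4.44 for Dnmt3b and 1.12 for Tet1, and Uhrf1 stayed within its spread. The log2 differences of level became -0.72 for Uhrf1 minus Dnmt3a (reversed), 2.80 for Dnmt3a minus Dnmt3b, 1.90 for Dnmt3b minus Tet1, 0.52 for Dnmt1 minus Dnmt3a and 4.79 for Tet2 minus Tet1. The deposited length of Dnmt3a exceeds its longest reference transcript by more than that of any other member. Without length scaling (CPM), Dnmt1 minus Tet2 turned to -0.21, Uhrf1 minus Dnmt3a to -2.15 and Dnmt1 minus Dnmt3a to -0.20. The others moved to 2.09 for Tet3 minus Dnmt1, 2.16 for Tet2 minus Uhrf1, 3.98 for Dnmt3a minus Dnmt3b, 0.25 for Dnmt3b minus Tet1, 1.96 for Dnmt1 minus Uhrf1, 1.89 for Tet3 minus Tet2 and 4.24 for Tet2 minus Tet1. A pseudocount of 1 gave 1.63 for Dnmt3a minus Dnmt3b, 1.19 for Dnmt3b minus Tet1 and 4.10 for Tet2 minus Tet1, and no pseudocount gave 1.93 for Dnmt3b minus Tet1. Without replicate 1 or without replicate 2, Uhrf1 minus Dnmt3a ranged from -0.015 to 1.14, and no other difference changed sign.

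The log2 ratio of Uhrf1 was 0.92 to 1.47 under TMM, DESeq2 size factors, no filter and junction scaling, and 0.23 scaled to the proliferation list, always called by the binomial test. By edgeR's exact test, none of the 4 binomial calls passed, with adjusted p = 0.568 for Uhrf1 at 1.01 and 1 for Dnmt3a at -0.16, Tet2 at -0.12 and Tet3 at -0.26, a test with little power at 1 library a side. Dnmt1 was called lower in replicate 1 at -0.088 under TMM, -0.094 under DESeq2 size factors, and -0.79 on the proliferation scale. Junction scaling turned Dnmt1 to 0.45, Dnmt3a to 0.31, Tet2 to 0.35 and Tet3 to 0.20, and brought Dnmt3b at 0.52 and Tet1 at 0.62 past the test. On the proliferation scale Dnmt3b turned to -0.71 and Tet1 to -0.62. Members called higher and lower in replicate 1 were 7 and 0 under junction scaling, 1 and 6 on the proliferation scale, and 0 and 0 by edgeR. For the wider list, beside 20 and 9, these counts were 10 and 17 under TMM and 10 and 18 under DESeq2 scaling. They were 46 and 1 under junction scaling, 1 and 52 on the proliferation scale, and 0 and 0 by edgeR. The shares of all tested genes called higher and lower were 21.4% and 22.7% under TMM and 21.0% and 23.2% under DESeq2 scaling. They were 65.5% and 2.39% under junction scaling, and 3.52% and 64.1% on the proliferation scale. By edgeR's exact test, 0.291% of all genes were called in either direction.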
